A study of Saccharomyces cerevisiae with 6 samples.

Results

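The genes described here encode the machinery that moves, removes, exchanges and escorts histones in budding yeast: the SWI/SNF, RSC, ISWI, Chd1, INO80 and SWR1 remodelers, and the histone chaperones HIR, Asf1, CAF-1, FACT, Spt6 and Nap1, with the elongation factor Spt4-Spt5. They were chosen by name from a list of 54 genes, with no measured value in the rule, although earlier results of these data were known. Of these, 53 had a probe set of their own on the array and all 53 passed the filter on low signals, out of 5385 genes tested. RSC30 was left without one, since its probe set is listed under RSC30 and YHR054C together.

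Remodelers are ATP-driven enzymes built around a Snf2-type motor. SWI/SNF and RSC slide or evict nucleosomes at promoters, ISWI enzymes and Chd1 space nucleosomes into regular arrays, INO80 slides nucleosomes, and SWR1 puts the histone variant H2A.Z in place of H2A. Chaperones bind free histones and hand them to DNA behind the replication fork (CAF-1, Asf1), outside replication (HIR) or in the wake of RNA polymerase II (FACT, Spt6). Several of these factors contact the histone H3 tail or the nucleosome surface, the parts that carry the residues changed in the mutant.

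The mutant strain has arginine in place of lysine 4 and lysine 79 of histone H3 (K4,79R), residues that Set1 and Dot1 methylate in wild-type cells. It was compared with a wild-type strain, with 3 arrays per group. Both were grown in the rich medium YPD to mid-log phase and harvested at an OD600 of 0.5 to 0.7. The labels used here do not give the strain background, the alleles of the other histone genes, or whether the 3 samples of a group were separate cultures, so p-values cover the spread among these arrays alone, and that spread may be technical. Because the RNA came from whole cultures, fewer cells with an mRNA and less of it per cell cannot be told apart.

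The values are array signals on a linear intensity scale. Wild-type arrays had a median signal of 34.1 to 36.8, and the mutant ones of 31.8, 42.9 and 40.1. The first mutant array differed from the rest: its 3′ to 5′ signal ratio for ACT1, a measure of transcript integrity, was 1.00 against 1.498 to 1.64 on the other arrays. For SPT15 it was the other mutant arrays that differed, with ratios of 2.79 and 3.35, while the first one, at 5.71, lay within the wild-type range of 5.02 to 6.15. Mutant array 1 gave the lowest mutant value for 37 of the 53 members and for 64.6% of all genes tested. Values without this array are given below for several members whose change it moved. The substitution leaves the H3 mRNA almost whole, so no probe set checks the labels. Precision is limited by the small number of arrays.

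None of the 53 remodeler and chaperone genes differed between K4,79R and wild type at a limma adjusted p under 0.05, while 4.23% of all tested genes did (2.79% higher and 1.45% lower). At an unadjusted p under 0.05, 8 of the 53 differed, against 22.2% of all genes. The median log2 change, mutant minus wild type, was -0.059 over the members and 0.039 over all genes (0.057 and 0.11 without mutant array 1), and the changes of single members ran from -0.58 for MSI1 to 0.49 for SPT6. Positive changes were seen for 25 members and negative ones for 28, against 2954 positive and 2431 negative of all 5385 genes. All log2 changes are on the scale of log2(signal + 3.605), which makes changes at low signals look smaller, and are given with the moderated standard error.

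For 51 of the 53 members the 95% interval of the change lay within 2-fold in either direction, as it did for 88.2% of all genes. The exceptions were IES4 and SPT6, whose values were spread most widely among the mutant arrays. An interval within 1.5-fold was reached by 26 members and by 45.5% of all genes. For the members whose interval passed 1.5-fold, a change of that size was thus not excluded with 3 arrays per group.

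**Figure D1:**
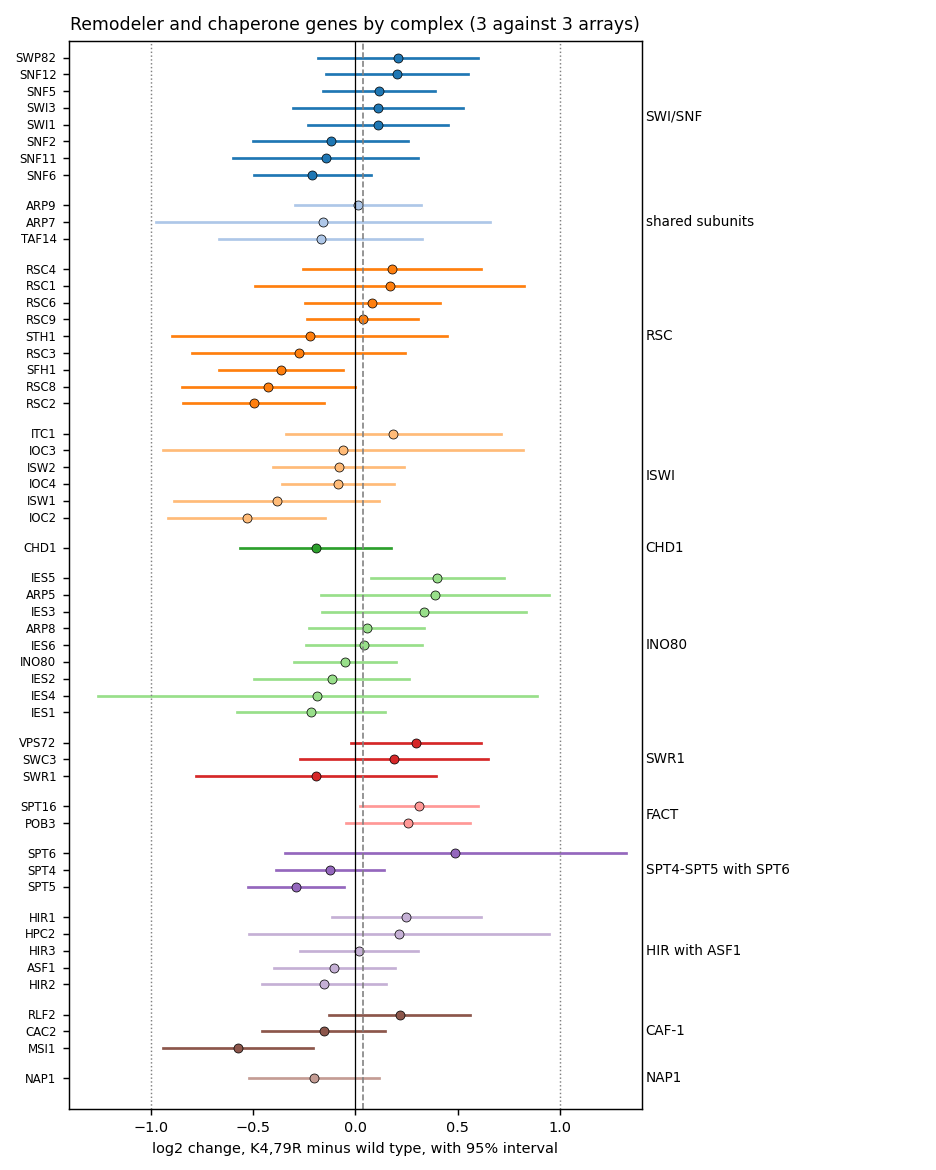
Log2 change of each of the 53 genes (points) with its 95% interval (bars), sorted within complexes; the dashed line is the median of all 5385 tested genes and the dotted lines mark 2-fold. The points lie between -0.58 (MSI1) and 0.49 (SPT6), and only the intervals of IES4 and SPT6 pass a dotted line.

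In 9 members the 3 mutant values did not overlap the 3 wild-type values. They were higher for 4 members (IES5, ARP8, VPS72 and HIR1), against 16.6% of all genes, and lower for 5 (RSC2, SFH1, IOC2, SPT5 and MSI1), against 12.2%. The change of ARP8 was near 0 and turned negative with a common median (-0.040) and with quantile normalization (-0.0088). Those shares over all genes show that separation of 3 against 3 arrays was common on this data set.

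Among the catalytic subunits, all 7 ATPase genes had a negative change, as did 2431 of all 5385 genes, and none of the 7 passed the test. SNF2 (YOR290C), the motor of SWI/SNF, read 225, 247 and 216 in wild type and 162, 234 and 245 in the mutant, with arrays always in the order 1, 2, 3. The groups overlapped, with array 1 low among the mutants, and the change was -0.12 ± 0.16 (limma adjusted p = 0.710) and 0.064 without that array. STH1 (YIL126W), the essential motor of RSC, read 63.7, 57.4 and 34.3 in wild type and 27.8, 53.9 and 50.4 in the mutant, low on wild-type array 3 and on mutant array 1, with a change of -0.22 ± 0.29 (0.051 without mutant array 1). ISW1 (YBR245C), which slides nucleosomes into even spacing, read 71.2, 65.4 and 70.2 in wild type and 35.7, 67.3 and 57.7 in the mutant. Here mutant array 2 lay among the wild-type values and mutant array 1 far below them, giving -0.39 ± 0.22 (limma adjusted p = 0.341) and -0.14 without it.

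Its relative ISW2 (YOR304W), which works with Itc1, read 31.4, 32.3 and 31.7 in wild type and 28.8, 32.8 and 28.1 in the mutant, a change of -0.082 with an interval of -0.40 to 0.24. The overlapping signals of CHD1 (YER164W) were 59.5, 57.1 and 43.3 in wild type and 42.1, 48.1 and 47.1 in the mutant (-0.19). Human CHD1 binds methylated lysine 4 of H3 through its chromodomains. INO80 (YGL150C) gave nearly equal signals, 183, 162 and 177 in wild type and 173, 175 and 156 in the mutant, and its interval of -0.30 to 0.20 was the narrowest among the 7 ATPase genes. SWR1 (YDR334W), whose product exchanges H2A for H2A.Z, read 61.3, 62.4 and 53.0 in wild type and 35.4, 78.0 and 47.4 in the mutant, where the arrays lay on both sides of the wild-type range. The common sign of the 7 was lost without mutant array 1, where 4 were negative as deposited, and without mutant array 3 or with the mean of each gene's probe sets, where 6 were. It was kept with a common median, with quantile normalization and with the constants of the mutant arrays (described under processing) divided out. These scalings, however, lowered the median change of all genes from 0.039 to -0.056, -0.028 and -0.0092, in that order. They moved changes toward negative values, so a negative sign kept under them is no check of it.

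SWI/SNF opens chromatin at inducible promoters, and none of its 8 subunit genes passed the test. Their median was 0.11 as deposited, 0.0026 with quantile normalization, 0.018 with a common median and -0.0040 with the mean of each gene's probe sets. As deposited 5 changes were positive and 3 negative, and the groups overlapped for all 8. SWP82 (YFL049W) had the largest positive value, reading 35.0, 25.2 and 37.0 in wild type and 39.0, 37.5 and 36.2 in the mutant. That change of 0.21 ± 0.17 rests on a low wild-type array 2. SNF6 (YHL025W) had the most negative one, 212, 224 and 196 in wild type against 164, 175 and 208 in the mutant, with only mutant array 3 inside the wild-type range (-0.21 ± 0.12). Of the other members, SNF5 was at 0.12, SNF12 at 0.20, SNF11 at -0.15 and SWI3, which had the lowest signal, at 0.11.

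SWI1, which carries a DNA-binding domain, is represented by 7 probe sets. Some of these failed the filter on low signals and were not tested, and those tested disagreed. The brightest, whose name has a suffix grouped here as marking shared probes, gave 0.11. The next gave 0.48 ± 0.18 between means of 27.4 and 39.7, with an adjusted p of 0.189 over all probe sets in limma. Another, dimmer one averaged 15.8 ± 0.819 for wild-type cells against 4.88 ± 5.37 for mutant cells (SD, n = 3), a log2 value of -1.37 with a limma adjusted p of 0.102. The dimmest one tested, with means of 7.37 in wild type and 7.45 in the mutant, gave -0.068. No statement on the direction of SWI1 can be made from these probe sets.

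TAF14, ARP7 and ARP9 encode subunits shared between complexes. The actin-related proteins Arp7 and Arp9 form a pair in both SWI/SNF and RSC, and Taf14, a reader of modified histone H3 through its YEATS domain, belongs to SWI/SNF, INO80 and general transcription factors. TAF14 (YPL129W) read 125, 135 and 130.3 in wild type and 78.8, 129.9 and 148 in the mutant, with array 1 alone below wild type (-0.17 ± 0.22, and 0.093 without that array). ARP9 (YMR033W) was level, at 108 ± 8.31 in wild type and 109 ± 13.5 in the mutant (mean ± SD, n = 3). Its partner ARP7 varied far more within each group, from 33.5 to 62.4 in wild type and from 25.0 to 68.4 in the mutant.

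RSC is the abundant, essential relative of SWI/SNF that keeps promoters free of nucleosomes. Its 9 tested genes had a median of -0.22, with 5 negative and 4 positive values. That median depended on single arrays: it was -0.033 without mutant array 1, -0.38 without mutant array 2, -0.062 without wild-type array 1 and -0.13 without wild-type array 2. RSC2 (YLR357W), a bromodomain subunit that together with its paralog RSC1 defines alternative forms of RSC, read 166, 190.0 and 201 in wild type and 107, 144 and 143 in the mutant. Every mutant value lay below every wild-type value. The change was -0.50 ± 0.15 (limma adjusted p = 0.103), and it passed the threshold with a common median (-0.60, adjusted p = 0.0319), with the constants divided out (-0.55, adjusted p = 0.0321) and without mutant array 1 (-0.36, adjusted p = 0.0492). It did not pass with quantile normalization (-0.51, limma adjusted p = 0.0520), with the replicate block (limma adjusted p = 0.138) or without any other single array. A common median and the divided constants also lowered the median change of all genes, from 0.039 to -0.056 and -0.0092.

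The paralog RSC1 (YGR056W) read 45.3, 39.3 and 23.1 in wild type and 28.8, 55.0 and 38.3 in the mutant, groups that overlap throughout. Its change of 0.17 had an interval of -0.49 to 0.82, and its sign turned without wild-type array 3 (-0.092) and without mutant array 2 (-0.056). The difference between the paralogs was not tested. RSC3 (YDR303C), a zinc-cluster protein that binds promoter DNA, read 30.2, 34.4 and 31.4 in wild type and 17.3, 34.9 and 27.8 in the mutant, where only array 1 lay far below (-0.28 ± 0.23, and -0.033 without that array). The probe set shared by its paralog RSC30 and YHR054C read 57.9, 40.9 and 39.4 in wild type and 45.7, 99.6 and 64.8 in the mutant, and its signal cannot be assigned to either gene.

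SFH1 (YLR321C), the RSC counterpart of SNF5, was tight in wild type at 83.3, 84.4 and 86.5 and lower on all mutant arrays at 56.9, 71.5 and 67.6. That gave -0.36 ± 0.13 (limma adjusted p = 0.165). RSC8, the counterpart of SWI3, was at -0.43 ± 0.18, but wild-type array 2 read 113.2, inside the mutant range of 102.5 to 117.8. RSC4 (YKR008W), a bromodomain protein that binds acetylated H3, had the largest positive value in the complex, reading 16.4, 18.0 and 18.9 in wild type and 15.2, 22.6 and 25.1 in the mutant (0.18 ± 0.19). RSC6 and RSC9 stayed near 0, at 0.084 and 0.036, and both turned negative with a common median (-0.014 and -0.063).

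**Figure D2:**
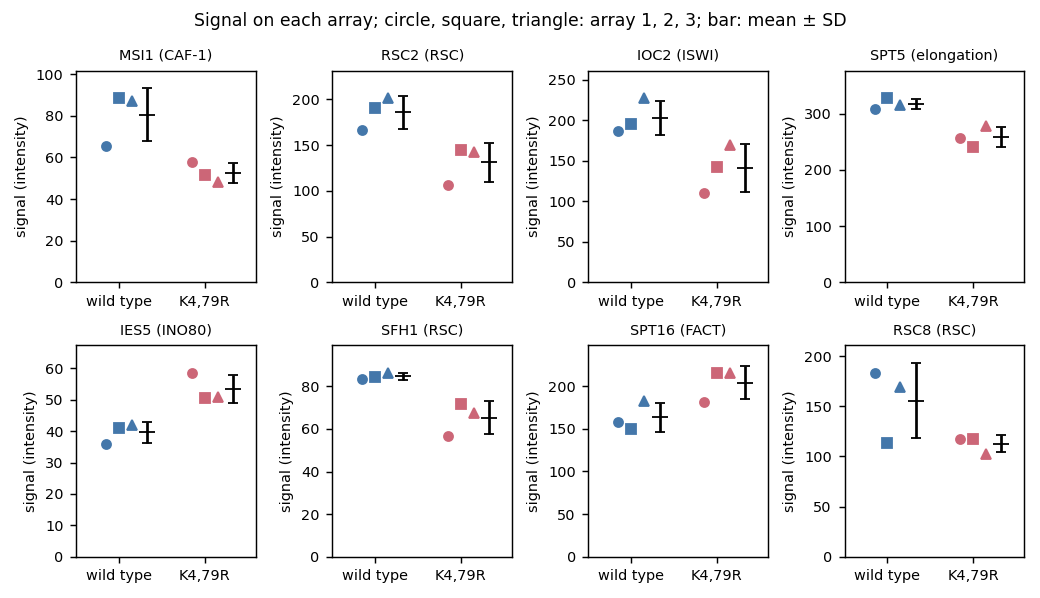
Signal (intensity, linear axis from 0) on each array for the 8 genes with an unadjusted p under 0.05; circles, squares and triangles are arrays 1, 2 and 3 and bars the mean ± SD of 3. IES5 and SPT16 lie higher in K4,79R and the other 6 lower, and the groups overlap for SPT16 and RSC8.

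Among the partners of the ISWI motors, IOC2 had the most negative value. IOC2 (YLR095C), which joins Isw1 and Ioc4 in the Isw1b complex, read 187, 196 and 227 in wild type and 110.5, 143 and 170.0 in the mutant, all mutant values below wild type. Its change of -0.53 ± 0.17 (limma adjusted p = 0.116) passed the threshold with a common median (-0.63, adjusted p = 0.0334) and with the constants divided out (-0.58, adjusted p = 0.0364). Under these 2 scalings 3.86% and 3.05% of all genes were called lower, and IOC2 and RSC2 were the only members called in either direction. With quantile normalization IOC2 did not pass (-0.55, limma adjusted p = 0.0534), nor did it as deposited without any single array. IOC4, whose product completes Isw1b, stayed level on its own probe set, at 75.0 ± 3.68 in wild type and 70.5 ± 2.13 in the mutant (mean ± SD, n = 3). A probe set listed under IOC4, RBH2 and YDR034C-A together read 86.6, 82.8 and 87.6 in wild type and 41.4, 84.6 and 69.8 in the mutant (-0.43 ± 0.24). That signal cannot be assigned to any of these genes. IOC3, found with Isw1 in the Isw1a complex, spanned 14.5 to 46.1 in wild type alone. ITC1 (YGL133W), the partner of Isw2, read 55.6, 43.5 and 31.5 in wild type and 38.8, 58.4 and 51.2 in the mutant (0.19 ± 0.23), and its sign turned without wild-type array 3 (-0.011).

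INO80 slides nucleosomes and acts at promoters, replication forks and DNA breaks. Its 9 genes had a median of 0.041, which turned negative with quantile normalization (-0.0088), a common median (-0.056) and the constants divided out (-0.0077). The 3 largest positive values were those of IES5, ARP5 and IES3. IES5 (YER092W) read 35.9, 41.0 and 41.9 in wild type and 58.6, 50.6 and 51.0 in the mutant, so that all mutant values were higher, array 1 most of all. The change was 0.40 ± 0.14 (limma adjusted p = 0.154), and it was not called under any of the 19 alternatives run. ARP5, an actin-related protein of the complex, read 34.4, 31.9 and 22.5 in wild type and 27.4, 49.2 and 45.0 in the mutant, with mutant array 1 inside the wild-type range (0.39 ± 0.24). IES3 read 42.9, 47.7 and 45.2 in wild type and 41.9, 79.2 and 58.6 in the mutant, with mutant array 1 just below the wild-type range (0.34 ± 0.22). IES6 was near 0, at 0.041. IES1 (YFL013C) had the most negative value of the complex, 64.6, 63.2 and 56.9 in wild type and 60.4, 54.9 and 43.2 in the mutant (-0.22 ± 0.16). IES2 was at -0.12 and IES4 at -0.19.

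For SWR1, the complex that places H2A.Z, VPS72 (YDR485C) encodes the subunit that binds this variant. It read 41.6, 41.9 and 46.3 in wild type and 52.2, 59.6 and 50.2 in the mutant, without overlap (0.30 ± 0.14, limma adjusted p = 0.255). SWC3 read 10.2, 14.9 and 12.6 in wild type and 12.4, 12.9 and 19.8 in the mutant, low signals that overlapped (0.19).

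FACT loosens and rebuilds nucleosomes as RNA polymerase II passes, and both of its genes read higher in the mutant without passing the test. SPT16 (YGL207W) read 158, 150.4 and 183 in wild type and 182, 215 and 216 in the mutant, where array 1 fell just below the highest wild-type value. The change was 0.31 ± 0.13 (limma adjusted p = 0.197). POB3 (YML069W), its partner, read 221, 234 and 213 in wild type and 228, 311 and 269 in the mutant, again with array 1 inside the wild-type range (0.26 ± 0.13, limma adjusted p = 0.290).

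Spt6 is a chaperone of H3-H4 that travels with the polymerase, and Spt4-Spt5 is the elongation factor bound next to it. SPT6 (YGR116W) had the largest positive change of all members, from 18.8, 16.9 and 19.6 in wild type to 13.7, 51.0 and 27.4 in the mutant. Mutant array 1 lay below and array 2 far above the wild-type values, a 3.72-fold range within the mutant, so the change of 0.49 ± 0.36 had an adjusted p of 0.472 in limma. It was 0.90 without mutant array 1 and 0.076 without mutant array 2. SPT5 (YML010W) was lower on every mutant array, at 309, 328 and 315 in wild type and 257, 242 and 278 in the mutant (-0.29 ± 0.10, limma adjusted p = 0.150). A second SPT5 probe set, with means of 119 and 107, gave -0.16 ± 0.13, and the name of the brighter one has a suffix grouped here as marking shared probes. SPT4 was at -0.12 ± 0.11.

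HIR represses histone genes outside S phase and deposits H3-H4 independently of replication, with Asf1 as its histone donor. These 5 genes had a median of 0.017, which turned to -0.014 with quantile normalization, -0.080 with a common median and -0.032 with the constants divided out. HIR1 (YBL008W) read 26.1, 27.1 and 30.4 in wild type and 30.6, 39.9 and 31.4 in the mutant, where the lowest mutant value exceeded the highest wild-type value by less than 1 unit (0.25 ± 0.16). HIR2 (YOR038C) went the other way, 89.6, 84.7 and 102 in wild type against 74.8, 88.1 and 84.6 in the mutant (-0.15 ± 0.13), and HIR3 was level at 0.017. HPC2, at 0.21 (0.55 without mutant array 1), ranged from 23.3 to 43.0 in wild type and from 21.5 to 50.5 in the mutant. ASF1 (YJL115W) read 204, 212 and 244 in wild type and 179, 210.2 and 226 in the mutant, an overlapping pair of groups with an interval of -0.40 to 0.19.

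CAF-1 assembles nucleosomes behind the replication fork, and its 3 genes split. MSI1 (YBR195C), which encodes the smallest subunit, had the most negative change of all members, from 65.7, 88.4 and 87.3 in wild type to 57.9, 51.4 and 48.2 in the mutant. Each mutant value lay below each wild-type value, although wild-type array 1 stood well under the other wild-type arrays. The means were 80.5 ± 12.8 against 52.5 ± 4.94 (SD, n = 3; log2 -0.58 ± 0.16, limma adjusted p = 0.0872), which was the lowest adjusted p of any member. RLF2 (YPR018W), the large subunit, read 61.8, 47.1 and 46.7 in wild type and 58.8, 62.0 and 60.4 in the mutant (0.22 ± 0.15). CAC2 was at -0.15, and 3 further probe sets of it lay between -0.11 and 0.31. NAP1 (YKR048C), a chaperone of H2A-H2B, read 539, 611 and 651 in wild type and 437, 561 and 573 in the mutant (-0.20 ± 0.14, and -0.078 without mutant array 1), with arrays 2 and 3 inside the wild-type range.

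Without mutant array 1 some members were called, and the direction of these calls differed with the scaling of the arrays. As deposited, 5 members were then called higher (SPT6 0.90, ARP5 0.63, IES3 0.56, SPT16 0.39 and POB3 0.37) and 2 lower (MSI1 -0.64 and RSC2 -0.36). Over all genes 16.0% were called higher and 4.83% lower in that comparison. With a common median, 1 member was called higher and 9 lower. Of all 5384 genes 358 were then called higher and 728 lower (20.2% in either direction). With the constants divided out, none was higher and 6 were lower. Of all 5385 genes 477 were then higher and 513 lower (18.4% in either direction). Quantile normalization likewise gave none higher and 6 lower, against 444 higher and 574 lower of all 5384 genes (18.9% in either direction). The median change of all genes moved from 0.11 as deposited to -0.097 with a common median, and every change is relative to that shift.

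Of the 53 members, 14 were called under at least 1 of these 4 scalings without mutant array 1 and 2 under all 4. Each scaling alone called between 18.4% and 20.9% of all genes. The share of all genes called under any or all of the 4 was not counted, so these counts do not set the members apart. The 2 called under all 4 were MSI1, between -0.86 and -0.64 (limma adjusted p from 0.00360 to 0.0241), and RSC2, between -0.58 and -0.36 (limma adjusted p from 0.0118 to 0.0492). IOC2, SFH1 and SPT5 were called lower in 3 of the 4. Both FACT genes were called as deposited alone: SPT16 was at 0.17 and POB3 at 0.15 with a common median. SPT6 kept values of 0.66 to 0.90 and was called in 2 of the 4. None of the 14 genes changed sign between these scalings, and the same 2 mutant arrays lie behind all of them.

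**Figure D3:**
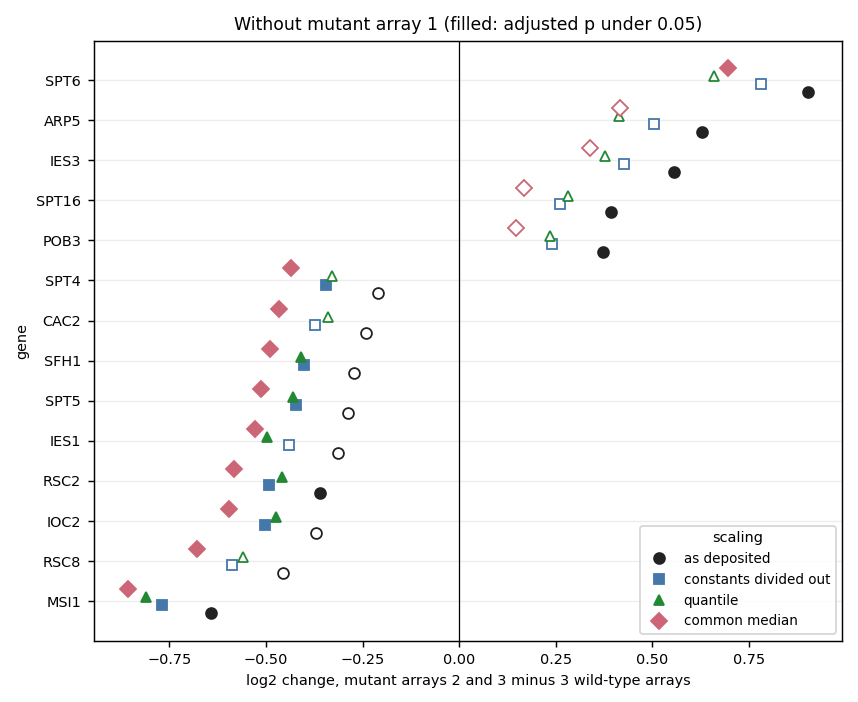
Log2 change of the 14 genes called under any scaling when mutant array 1 is left out, with 1 marker per scaling; filled markers have a limma adjusted p under 0.05. MSI1 and RSC2 are filled under all 4 scalings, and the 5 genes to the right move toward 0 when the arrays are rescaled.

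Some members were low on 1 array of each group. For 19 of the 53 genes (35.8%, against 22.8% of all genes) the lowest wild-type value was on array 3 and the lowest mutant value on array 1. IES4, an INO80 subunit gene, read 51.1, 55.4 and 19.4 in wild type and 16.1, 54.9 and 40.1 in the mutant. ARP7 read 62.4, 58.6 and 33.5 in wild type and 25.0, 68.4 and 49.7 in the mutant. STH1, given above, and these 2 genes were lower on both arrays, by 0.69 to 1.25 on the log2 scale, than on the next lowest array of the group. Across the 53 genes, which are not independent replicates, deviations from the group means on wild-type array 3 and mutant array 1 had a correlation of 0.53, against 0.21 across all tested genes. Wild-type array 1 and mutant array 2 gave 0.52 across the 53 genes and 0.27 across all tested genes. Since the deviations within a group cancel for each gene, these 2 results are tied. Whether the pattern is particular to these arrays cannot be told from them. The pattern was described after its values were seen. The ACT1 ratio was 1.64 on wild-type array 3 and 1.00 on mutant array 1. Their SPT15 ratios, 6.15 and 5.71, were the highest of the 6 arrays. The other wild-type arrays had SPT15 ratios of 5.09 and 5.02, and the other mutant arrays 2.79 and 3.35. The part of RNA quality in this pattern was not tested.

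**Figure D4:**
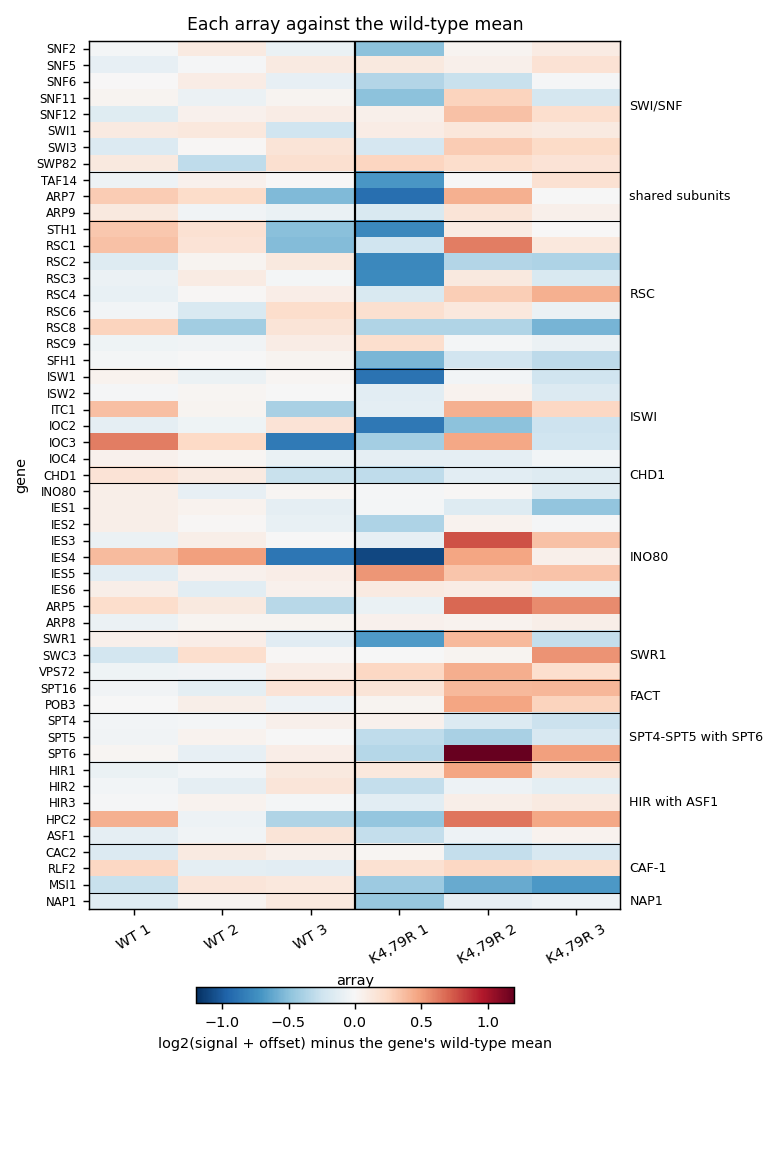
Log2(signal + offset) on each of the 6 arrays minus the gene's wild-type mean, for the 53 genes by complex; red is higher and blue lower. IES4, ARP7 and STH1 are blue on both wild-type array 3 and mutant array 1, while MSI1 and RSC2 are blue on all 3 mutant arrays.

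A further list of 35 genes held other subunits of these complexes, the HMG proteins Nhp6A and Nhp6B, more chaperones and other Snf2-family motors. Of these, 33 were tested and none was called in either direction by limma, against 4.23% of all genes. An unadjusted p under 0.05 was reached by 4 of the 33, against 22.2% of all genes. The median of the 33 was -0.020, within a range of -0.39 (VPS75, a chaperone gene) to 0.48 (RDH54, a Snf2-family recombination gene). Both were named after their values were seen.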

How the data were processed

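Total RNA of 3 wild-type and 3 K4,79R samples was labelled with biotin and hybridised to 1-colour arrays, per the labels' protocols. The deposited values are intensity on a linear scale, 1 per probe set and array, and the submitters' processing notes name MAS5 without a version. The mutant columns are whole multiples of 0.1 of a constant (tolerance 0.001), with values of 0.922, 1.09 and 1.11 for arrays 1, 2 and 3. What the authors based them on is not stated in the labels. Trimmed means differed by 1.199-fold, under the limit of 1.2 for rescaling, so values were used as deposited.

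Of 9335 probe sets, 60 controls were left out. Gene names came from the platform annotation: 6504 probe sets had 1 gene, 328 several and 2443 none, and the 6504 matched the RefSeq gene table of assembly R64. An offset of 3.605 (0.1 of the median of array medians) was added before log2. Probe sets in the lowest 20% by mean of these log2 values were left out, and a gene was read from its brightest probe set. A letter s, x, i, f, g or r before the ending of a probe set's name was taken as a mark of probes shared between transcripts.

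Differences were tested over all 5385 genes with limma 3.58.1 in R 4.3.3 (lmFit, eBayes with an intensity trend, two-sided, 4 residual degrees of freedom, Benjamini-Hochberg adjusted p under 0.05). An exact permutation test of 3 against 3 cannot go below 0.1, so none is given. The fit was tested on simulated data. Members and lists were chosen with earlier results of these data known. Values in every array are given for members with a call, the ATPases, RSC1, RSC2, RSC3, 5 chaperone genes, and the largest rise and fall per complex of 3 or more. SFH1, SWC3, ARP5, IES3, IES4 and ARP7 were added after their values were seen. Alternatives covered scaling, offset, filter, probe set, trend, replicate block and left-out arrays.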

Additional observations from a re-analysis of the deposited data

How the results depend on the processing

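Leaving out 1 array gave between 22 and 1123 called genes over the whole table, between 0 and 7 called members, and a median change of the members between -0.082 and 0.057. All 7 calls came without mutant array 1; without any other single array no member was called. The total of 228 called genes became 369 with quantile normalization, 364 with a common median and 346 with the constants divided out, with 181, 156 and 182 higher and 188, 208 and 164 lower, against 150 and 78 as deposited (65.8% higher, then 49.1%, 42.9% and 52.6%). Members called were 2 with a common median and 2 with the constants divided out. Alternatives chosen after seeing the data joined a scaling to the loss of mutant array 1: a common median gave 1086 genes, 10 members and a median of -0.16, the constants divided out 990 genes and 6 members, and quantile normalization 1018 genes and 6 members.

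Deviations of same-numbered arrays from their group means had correlations of -0.15, 0.066 and -0.018 across all tested genes. Across the members these were -0.39, 0.30 and -0.15. Since deviations within a group cancel for each gene, whether these arrays share more than a number cannot be told from them. With the replicate block 24 genes and no members were called.

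Of the 53 members, 24 turned sign under at least 1 of the 19 alternatives. Among them, ARP9 turned to -0.087 with a common median, -0.038 with the constants divided out, and to -0.11 and -0.020 in those scalings without mutant array 1. SWP82 turned to -0.024 and -0.031 without mutant array 1 under a common median and quantile normalization. With the mean of a gene's probe sets SWR1 turned to 0.063, SWI1 to -0.21 and CAC2 to 0.011. A common median turned IES6 (-0.056), ARP8 (-0.040), RSC9 (-0.063), RSC6 (-0.014) and HIR3 (-0.080), quantile normalization SWI3 (-0.030), and a common median without mutant array 1 SNF5 (-0.10). Over left-out arrays ARP9 ran from -0.061 to 0.11, RSC1 from -0.092 to 0.37, ITC1 from -0.011 to 0.37, SNF2 from -0.23 to 0.064, TAF14 from -0.35 to 0.093, STH1 from -0.48 to 0.051, SWR1 from -0.48 to 0.050, INO80 from -0.10 to 9.1e-04, IES4 from -0.62 to 0.27, ARP7 from -0.45 to 0.21 and IOC3 from -0.48 to 0.25. CAC2 was called lower without mutant array 1 under a common median, and no other member that turned was called in any setting. The cause was not tested. The offset, the filter and the trend changed no count of members called.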
